A study of Rattus norvegicus with 24 samples.

Results

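The cytosolic ribosomal protein genes are the genes whose products, with ribosomal RNA, make up the ribosomes of the cytoplasm. Their probes were chosen by name: a single platform symbol that starts with Rpl or Rps and a digit, with the ribosomal S6 kinases left out, and a value on at least 12 of the 24 arrays. This gave 30 genes of the 1313 with a single name and a value, each with 1 of the 1561 probes measured, 10 of the small subunit and 20 of the large subunit. The rule used no measured change. Values stood on all 24 arrays for 28 members, on 22 for Rps24 and on 16 for Rps29, and no further probe of such a name had a value on fewer arrays. 1 more ribosomal probe with a value, for Rps2, carries several symbols and is no member. The RefSeq gene annotation lists Rpl18-ps7 and Rpl17-ps16 as pseudogenes. By symbol, Rpl27l1, Rpl37l1 and Rpl36al1 are like-named relatives of Rpl27, Rpl37 and Rpl36a. Transcripts of near-identical copies cannot be told apart on a cDNA probe, so these names are uncertain.

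Kidney RNA of rats of strain SS (salt-sensitive) and strain 13 was compared after 2 weeks on low salt (LS) or high salt (HS). Strain 13 is, from what is known of the study, the SS rat with chromosome 13 taken from another strain, so both strains share the SS background. The series title names the renal medulla and the labels name kidney, and neither states age or sex. The 4 comparisons are HS against LS in SS, HS against LS in strain 13, strain 13 against SS on LS, and strain 13 against SS on HS. Each comparison holds 3 replicate RNA pairs, each hybridised on a forward and a dye-swap array, which were averaged. The labels do not say that replicates came from separate animals, so the p-values measure the spread between these RNA pairs, which may be technical. Each value is a deposited ratio of the 2 channels on a log scale of unstated base, and means come with the SD of 3 RNA pairs. A value above 0 is likely to mean higher on HS, or higher in strain 13. That direction comes from titles that name the channels and from how the 4 comparisons close. The files hold ratios, so the levels of kidney marker genes could not be checked against the labelled tissue.

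Ribosomal proteins assemble with ribosomal RNA in the nucleolus, in near-equal amounts, and most are needed for a working subunit. Their mRNAs are abundant, and many carry a terminal oligopyrimidine tract, a run of C and T (U in the RNA) that begins at the first transcribed base. Through this tract their translation follows mTOR signalling, the pathway that couples cell growth to nutrients and hormones, so a protein's synthesis can change without a change of its mRNA. Arrays of total RNA measure only the mRNA.

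The start sites of some of the members named below are shown, each on its own line, because a tract, where present, lies there. Other named members with an entry, such as Rps15 and Rpl24, are not shown. Each line gives 15 bases before and 15 from the annotated start onward, 5′ to 3′ on the coding strand, from RefSeq promoters of build GRCr8. Capitals mark the longest uninterrupted run of C and T.
Rpl31 (chr9:49143096-49143125, plus strand): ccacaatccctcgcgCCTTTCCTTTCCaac
Rps26 (chr7:1643390-1643419, minus strand): gagagccgccgggTCCTCTTTCgagtcttg
Rpl22 (chr5:168117946-168117975, plus strand): gtagtgcgCCCCCCTCCCTTTCTgcctcct
Rpl39 (chrX:121195882-121195911, minus strand): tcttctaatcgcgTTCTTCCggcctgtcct
Rps23 (chr2:23814502-23814531, plus strand): tgggtccttcctgCCTCTCTTCTCTCTTTC
Rpl36al1 (chr6:93392244-93392273, minus strand): tccgacttccgctccatccgTCCCTTTCCT
Rps6 (chr5:106420526-106420555, minus strand): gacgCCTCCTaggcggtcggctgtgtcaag
Rpl5 (chr14:1995211-1995240, minus strand): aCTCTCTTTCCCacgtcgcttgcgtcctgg
Rpl41 (chr7:1563483-1563512, minus strand): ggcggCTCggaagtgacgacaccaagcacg

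Of the 30 members, 23 matched an entry of the promoter table and 7 did not. A run of at least 8 C or T in this window, searched on the coding strand only, stood in 16 of the 23 (69.6%), against 11.4% of the 27457 promoters in the table. The longest run of a member ranged from 3 to 18 bases with a median of 10, against a median of 4 over the table. In 12 of the 23 a run of that length covered the annotated start, against 4.33% of the table, and 11 of the 23 started with C, against 24.2%. In Rpl31 the run opens exactly at the start, in Rpl5 it lies just before it, and in Rpl41 the window holds no run longer than 3. A run found here is a description of the sequence at an annotated start, not a measured tract.

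An array held values for 726 to 1402 probes, and the number of arrays limits the precision. limma called 37 of 1310 probes in the SS diet comparison, 0 of 1287 in the strain 13 diet comparison, 0 of 1229 between strains on LS and 81 of 1350 between strains on HS (Benjamini-Hochberg adjusted p below 0.05). Array means were within 0.0049 of 0, so the values are relative to the average of the measured probes. The platform listing holds its clones in 2 blocks, with values at probe IDs 1 to 884 and at 1769 to 2635. The other probes of these blocks were shifted against each other by -0.155 to 0.22 between first and second block, depending on the RNA pair. With 14 members in the first block and 16 in the second, member values are given as deposited and, where it matters, after each block was centred on its median. Centring was chosen after seeing the data.

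The question in SS is which genes respond to salt in the salt-sensitive strain. Ribosomal protein probes lay slightly above 0 there: 26 of 30 had a mean log ratio above 0, with a median of 0.0925 against -0.0067 over all 1310 probes tested. Values ran from -0.0467 for Rpl5 to 0.21 for Rpl31. None of the 30 was called by limma, where 2.82% of all probes were, and 6 had an unadjusted p below 0.05, all above 0, a share of 20% against 19.5% of all probes. All 3 replicates were above 0 in 20 of the 30 members (background 22.1% of probes), and in none were all 3 below 0 (background 19.5%).

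Rpl31, a large-subunit protein at the exit of the peptide tunnel, had log ratios of 0.215, 0.19 and 0.225 in the 3 SS replicates. Its mean was 0.21 ± 0.018 (SD, n = 3; limma adjusted p = 0.0966). All 3 values lie close together and above 0. Rps26, a small-subunit protein beside the mRNA exit, had 0.21, 0.195 and 0.175 (mean 0.193, limma adjusted p = 0.14). Rpl39, a very small protein in the tunnel wall, had 0.265, 0.145 and 0.12 (mean 0.177, limma adjusted p = 0.142). Rpl22, an RNA-binding protein of the large subunit, had 0.095, 0.185 and 0.26 (mean 0.18, limma adjusted p = 0.171). Each of these 4 probes was above 0 in every replicate and missed the threshold. On forward arrays alone Rpl31 had 0.357, Rps26 0.403, Rpl39 0.333 and Rpl22 0.313, and on dye-swap arrays alone they had 0.063, -0.017, 0.02 and 0.047. Their means average a higher forward value with a swap value near 0, and the part of the dye in them was not tested. Forward arrays alone called Rpl31 (limma adjusted p = 0.0306), Rps26 (0.0342), Rpl39 (0.0456) and further members, a larger share than of all probes. Dye-swap arrays alone called no member in this comparison. Among the 548 probes with values on all 24 arrays, where fewer probes are tested and the spread is estimated on those alone, 3 of 28 members passed: Rpl31 (limma adjusted p = 0.0286), Rps26 (0.0479) and Rpl39 (0.0464). A similar share of all 548 probes passed in this setting, so the count does not set the members apart. Rpl5, which carries a ribosomal RNA into the large subunit and can bind Mdm2, had -0.13, -0.10 and 0.09, with signs that differ between replicates. Rps6, the small-subunit protein that S6 kinases phosphorylate, had 0.14, 0.06 and 0.08 (mean 0.0933, limma adjusted p = 0.373).

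Small and large subunit members overlapped. The 10 small-subunit probes had a median of 0.0833 with 8 above 0, and the 20 large-subunit probes had 0.095 with 18 above 0. The 95% limits of the members in SS lay between -0.202 (Rps24) and 0.349 (Rpl31). They rest on the spread between RNA pairs, which may be technical. Median values by replicate were 0.10, 0.105 and 0.0775, and after centring each block 0.103, 0.115 and 0.0925. Centring left 27 of 30 above 0 with a median of 0.108. The median was 0.146 when the array with conflicting title and channel text was left out. That array is the dye-swap array of replicate 3, so this pair then rested on its forward array alone. The member median of replicate 3 was 0.225 on the forward array and -0.06 on the swap. Over the 3 replicates the median turned to -0.042 on the dye-swap arrays alone.

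**Figure D1:**
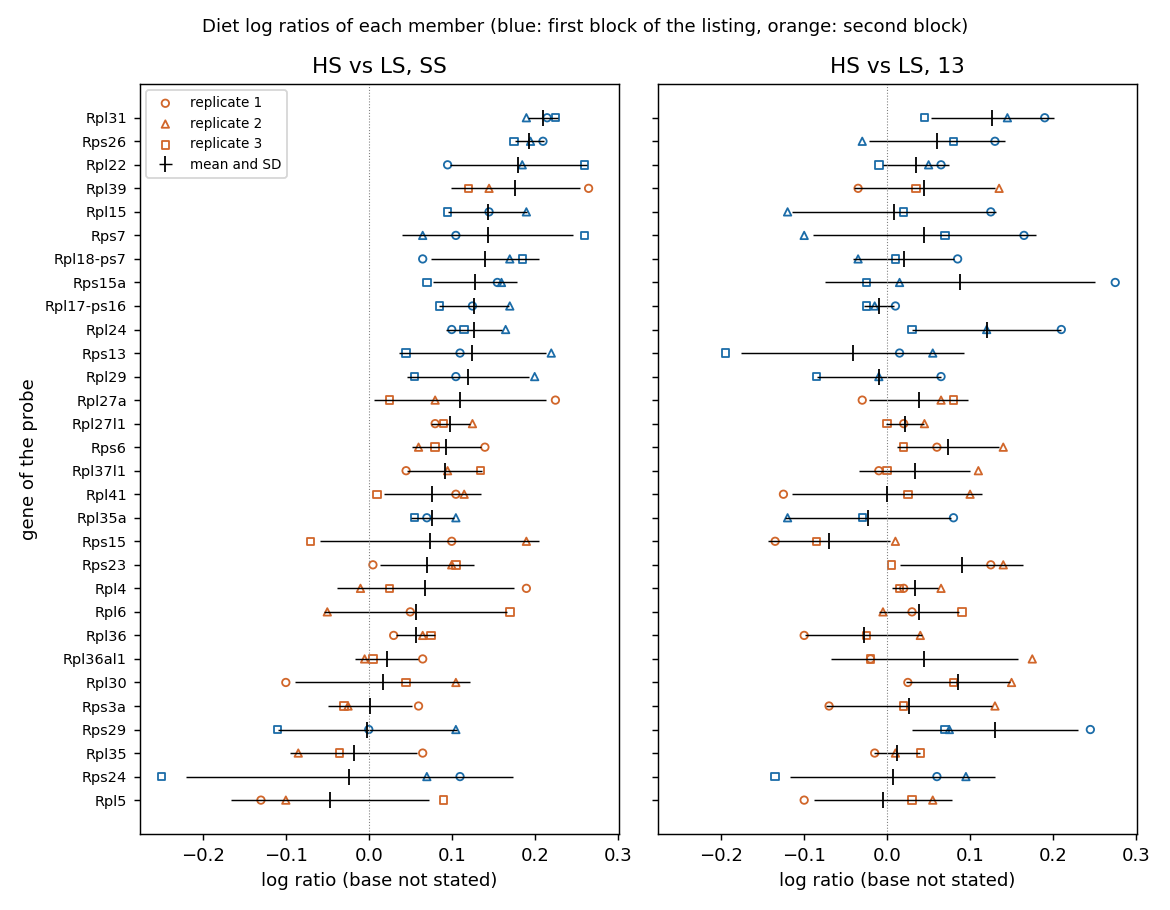
Log ratio of HS against LS (base not stated) for each of the 30 members in SS (left) and strain 13 (right), ordered by the SS mean; open symbols are the 3 replicates, coloured by listing block, and the bar and line are the mean and SD. In SS, 20 members have all 3 symbols to the right of 0, and in strain 13, 7 have, on averages of both dye orientations; the SS median is -0.042 on dye-swap arrays alone.

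In strain 13 the same diet contrast gave smaller member values. The median was 0.0333, against 0.0117 over all 1287 probes tested, with 23 of 30 above 0 and a range from -0.07 (Rps15) to 0.13 (Rps29). None was called by limma (0.0% of all probes were), and none had an unadjusted p below 0.05 where 9.25% of all probes did. All 3 replicates were above 0 in 7 of 30 (background 15.7%) and below 0 in none (background 15.8%). After centring each block, 8 were above 0 in all 3 (background 21.6%) and 1 below (background 18.6%).

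Rpl31 again had the lowest p, with 0.19, 0.145 and 0.045 (mean 0.127 ± 0.074, n = 3; limma adjusted p = 0.591). Rps29, a small zinc-binding protein of the small subunit, had 0.245, 0.075 and 0.07, and replicate 1 was the high one. Rpl24, at a bridge between the subunits, had 0.21, 0.12 and 0.03 (limma adjusted p = 0.625). Rps23, which lies by the decoding centre, had 0.125, 0.14 and 0.005. These 4 members were above 0 in every replicate, with means of 0.09 to 0.13. Rps15, in the head of the small subunit, was lowest with -0.135, 0.01 and -0.085. Rps26 and Rpl39, high in SS, had means of 0.06 and 0.045 here. Rps6 had 0.06, 0.14 and 0.02, and Rpl5 had -0.10, 0.055 and 0.03. The 95% limits of the members lay between -0.286 (Rps15) and 0.291 (Rps29). On dye-swap arrays alone the median turned to -0.052.

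Between the strains on LS the members split by listing block. The median of the 29 tested was 0.08, against 0.025 over all 1229 probes, with 20 above 0 and 9 below and a range from -0.108 (Rpl17-ps16) to 0.20 (Rpl37l1). limma called none (0.0% of all probes), and 10 had an unadjusted p below 0.05, all above 0, a share of 34.5% against 21.8% of all probes. All 3 replicates were above 0 in 15 of 29 (background 26.5%), made up of 13 of 16 in the second block and 2 of 13 in the first. They were below 0 in 4 (background 17.6%). The other probes of the second block were also higher than those of the first in all 3 replicates, by 0.145, 0.045 and 0.0675. After centring each block, 12 members had all 3 replicates above 0 (background 19.3%), and the median was 0.057.

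The highest members were second-block probes of the large subunit. Rpl37l1 had 0.21, 0.21 and 0.18 (mean 0.20 ± 0.017, n = 3; limma adjusted p = 0.104), and 0.128 after centring. Rpl27l1 had 0.19, 0.205 and 0.11 (mean 0.168, limma adjusted p = 0.118), and 0.096 after centring. Rpl41, a tiny basic peptide that bridges the subunits, had 0.285, 0.18 and 0.11 (mean 0.192, limma adjusted p = 0.124), and 0.119 after centring. Rpl36al1 had 0.325, 0.12 and 0.135 (mean 0.193, limma adjusted p = 0.124), and 0.121 after centring. All 4 were above 0 in each replicate, and none passed the threshold. With only probes on all 24 arrays, 5 of 28 members passed: these 4, at limma adjusted p = 0.0262 to 0.0486, and Rpl39 (0.0486), whose mean of 0.177 was 0.104 after centring each block. A somewhat smaller share of all probes passed in this setting, and all 5 members lie in the second block. Forward arrays alone called Rpl37l1, Rpl27l1, Rpl41, Rpl36al1 and further second-block members, a larger share than of all probes. Dye-swap arrays alone called no member here. Replicate 1 held the widest values: Rps15 had 0.475 there against -0.13 and 0.055. Rpl17-ps16, in the first block, was lowest with -0.165, -0.125 and -0.035. Rps6 had 0.075, 0.085 and 0.105, and Rpl5 had -0.155, -0.03 and -0.075. The median was 0.015 without the array that held the fewest values and -0.05 on dye-swap arrays alone. Rps29 had a value in replicate 2 only (0.035) and was not tested. The part of the listing block in these values was not tested beyond this centring.

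**Figure D2:**
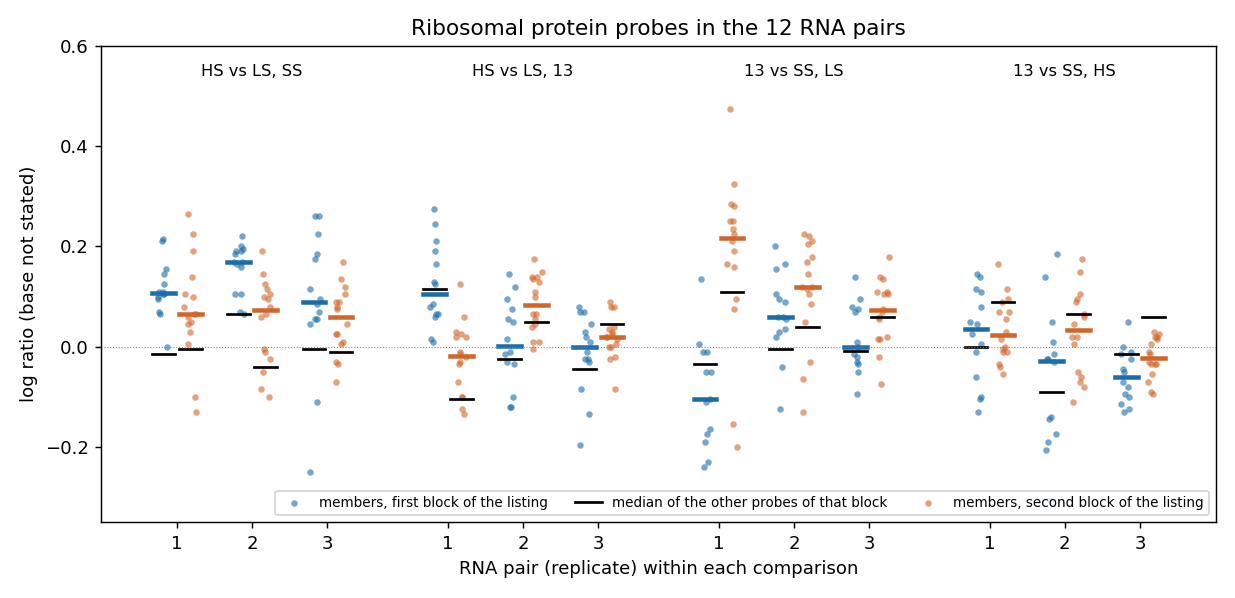
Log ratio (base not stated) of each member in the 12 RNA pairs, in blue for the first and orange for the second listing block, with coloured bars at the member medians and black bars at the median of the other probes of the same block. In strain 13 against SS on LS, replicate 1, the member medians were -0.105 and 0.2175 while the other probes had -0.035 and 0.11; in SS on HS against LS both member medians lie above the black bars in all 3 replicates.

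Between the strains on HS the members centred on 0. The median was 0.005, against 0.0183 over all 1350 probes, with 17 above 0 and 13 below as deposited, but -0.044, with 12 above and 18 below, after centring each block. None of the 30 was called by limma while 6.0% of all probes were. An unadjusted p below 0.05 was found for 2, both below 0, a share of 6.67% against 23.1% of all probes. All 3 replicates were above 0 in 3 members (background 28.3%) and below 0 in 6 (background 20%). After centring, 10 were below 0 in every replicate (background 21.1%).

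Rpl17-ps16 had -0.13, -0.14 and -0.125 (mean -0.132 ± 0.0076, n = 3; limma adjusted p = 0.175), with the smallest SD of the members named for this comparison. Rpl15, an RNA-binding protein of the large subunit, had -0.10, -0.305 and -0.08 (mean -0.162, limma adjusted p = 0.178). Rps26 had 0.005, -0.205 and -0.10 (limma adjusted p = 0.396). These 3 members lie in the first block, and replicate 2 was lowest in each. Rpl36 and Rpl30, both of the large subunit, were at the upper end with means of 0.095 and 0.102, each with 1 replicate near 0. Rpl5 had a mean of -0.0033 and Rps6 -0.035. On the dye-swap arrays alone 7 members were called lower, among them Rpl17-ps16, Rpl15 and Rps26. On the forward arrays 1 was called higher, Rps15a, which the dye-swap arrays called lower. In each orientation a larger share of all probes than of the members was called. The 95% limits lay between -0.31 (Rpl15) and 0.253 (Rpl30).

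The difference of the salt response between strains was estimated as the mean of 2 contrasts: strain 13 minus SS on the diet arrays, and HS minus LS on the strain arrays. It reuses the arrays of the 4 comparisons above and adds no new ones. A value below 0 means a lower HS against LS ratio in strain 13 than in SS. The median of the 29 members tested was -0.0817, against -0.0008 over all 1164 probes, with 24 below 0 and 5 above. Over all 30 members the median was -0.074 from the diet arrays and -0.082 from the strain arrays, while single members differed between the 2: Rpl36al1 had 0.0233 and -0.187, Rpl22 had -0.145 and -0.0267, and Rpl41 had -0.0767 and -0.217. In replicate 3 the channel text names the same SS RNAs on diet and strain arrays, so the 2 sets are not independent. The fit treats them as independent, which can make its errors too small where RNAs are shared. A fit to the 3 per-replicate differences alone called 0 of 1122 probes. limma called none, while 0.43% of all probes were called, and 2 had an unadjusted p below 0.05, both below 0, a share of 6.9% against 15.6% of all probes. All 3 replicates were below 0 in 11 of 29 (background 18.5%) and above 0 in 1 (background 18.9%). After centring each block, 17 of 29 were below 0 in every replicate (background 19.2%).

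Rpl39 had differences of -0.205, -0.1425 and -0.10 (mean -0.149 ± 0.053, n = 3; limma adjusted p = 0.263). Rpl41 had -0.2575, -0.0875 and -0.095 (mean -0.147, limma adjusted p = 0.31). Rpl18-ps7 had 0.00, -0.2175 and -0.1475, and Rpl37l1 had -0.075, -0.0875 and -0.1475. Of these 4, Rpl18-ps7 alone had a replicate that was not below 0. Rpl5 was highest with 0.075, 0.1225 and -0.01, and Rps6 had -0.0825, -0.0425 and -0.09. By replicate the member median was -0.0275, -0.0675 and -0.0875. It was -0.132 on forward arrays alone and -0.022 on dye-swap arrays alone, below 0 in both. In replicate 3, where the titles of the strain arrays on LS and HS carry 1 number string in common, HS minus LS had a member median of -0.09 with 25 of 29 below 0. In replicates 1 and 2 that string differs between LS and HS arrays. The labels do not say what it marks, and there it and the diet cannot be told apart.

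Member values depended on the dye orientation. On forward arrays the member median was above 0 in all 12 RNA pairs, from 0.06 to 0.30. On dye-swap arrays, taken as already turned to the same direction, it was below 0 in 10 of the 12, from -0.14 to 0.01. The 3 SS diet replicates had 0.30, 0.30 and 0.225 forward and -0.03, -0.085 and -0.06 on the swap. The forward value minus the swap value, divided by 2 and called the dye difference here, had a median of 0.109 over the members and was above 0 in 26 of 30 (86.7%). Over 1118 probes with at least 6 pairs its median was 0.0131, with 53.6% above 0. In replicate 1 between strains on LS, the titles of the forward and the dye-swap array also carry different number strings. In that pair string and orientation cannot be told apart.

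The dye difference was 0.304 ± 0.143 (SD over 12 pairs) for Rps15a, 0.283 for Rpl30, 0.254 for Rpl41 and 0.253 for Rps15. Rps15a, which had the widest gap, ranged from 0.08 to 0.61 on forward arrays and from -0.79 to -0.06 on swap arrays. At the other end Rps24 had -0.0565, Rps29 -0.0317, Rpl24 -0.0196 and Rpl5 -0.0171. By comparison, the member median of the dye difference was 0.153 in the SS diet arrays, 0.0942 in the strain 13 diet arrays, 0.116 on LS and 0.0608 on HS. The median log ratios beside them, over all 30 members, were 0.0925, 0.0333, 0.07 and 0.005. Both were highest in the SS diet comparison, followed by LS, the strain 13 diet comparison and HS. The part of the dye difference in the member log ratios was not tested.

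**Figure D3:**
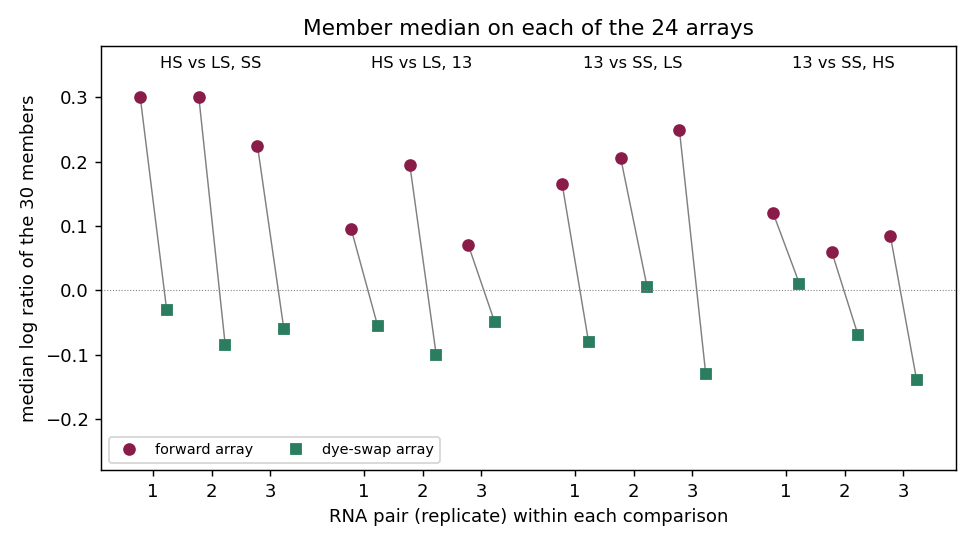
Median log ratio of the 30 members (base not stated) on each of the 24 arrays. Circles are forward arrays, and squares are the dye-swap arrays of the same RNA pair, taken as turned to the same direction. A line joins each pair. All 12 circles lie above 0 (0.06 to 0.30), and the squares run from -0.14 to 0.01.

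Members varied little between replicates. The SD within comparisons, pooled over the 4, had a median of 0.084, against 0.125 for the 548 probes on all arrays and 0.151 for 1169 probes. It was below that last value in 29 of 30 members, and in 370 of the 548 probes on all arrays. In the members it ranged from 0.039 (Rpl27l1) to 0.176 (Rps15). Rpl17-ps16 and Rps6 had 0.041 and 0.042. Intensities are not used here, so the brightness of these spots cannot be set beside their spread.

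Across the 12 RNA pairs the 29 members with all values were weakly correlated with each other, with a median Pearson r of 0.176 over 406 probe pairs, against -0.002 over all probes. These points share arrays, dye orientation and listing position. As deposited, the median r was 0.563 within the first block, 0.434 within the second and -0.089 between blocks. After centring each block these were 0.329, 0.398 and 0.189, with 0.28 over all member pairs. Between blocks the median r was below 0 as deposited and above 0 only after this centring, which was chosen after seeing the data. Centring within 8 stretches of the listing gave 0.309 over all member pairs. In the map of correlations Rps24 and Rpl5 stand apart from most members.

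**Figure D4:**
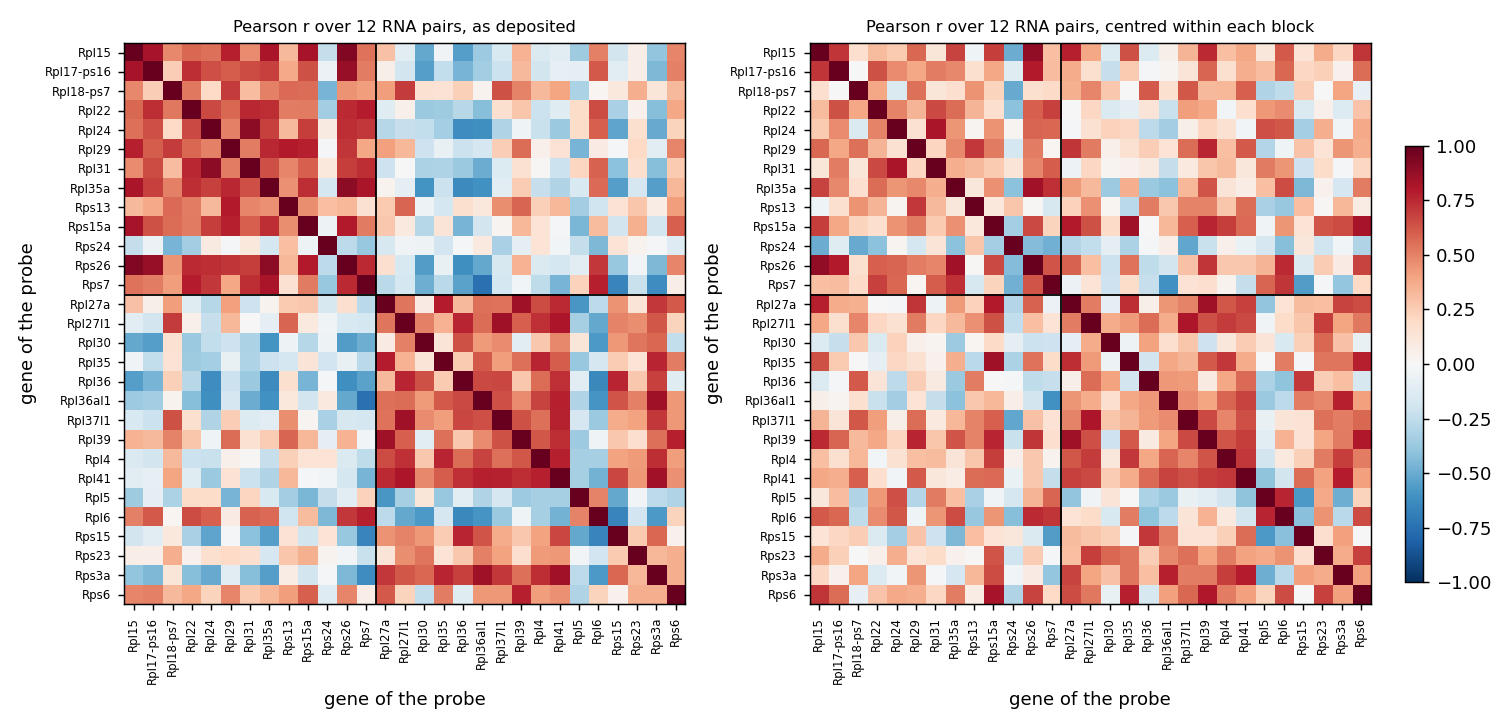
Pearson r between members over the 12 RNA pairs, as deposited (left) and after each listing block was centred on its median (right); black lines separate the first block (top left) from the second. The median r between blocks was -0.089 as deposited and 0.189 after centring.

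3 ribosomal proteins with other names were measured: Rpsa, Rack1 and Rplp0. In SS on HS against LS all 3 were above 0 with an unadjusted p below 0.05, and none was called: Rack1, a scaffold protein on the small subunit, had a mean of 0.168, Rplp0, of the ribosomal stalk, 0.17, and Rpsa, of the small subunit, 0.13. Rpsa fell in strain 13 against SS on HS, with -0.24, -0.185 and -0.235 (mean -0.22 ± 0.030, n = 3; limma adjusted p = 0.0487). That call held under 6 of 15 alternatives (adjusted p = 0.00958 to 0.241, with values from -0.263 to -0.172), and it was lost after centring each block (adjusted p = 0.122), with the replicate block (adjusted p = 0.0782) and without each replicate in turn (0.106 to 0.241). In the other comparisons Rpsa had -0.0883 on LS and 0.0283 in strain 13 on HS against LS, neither called.

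Of 12 measured translation factors, 1 passed in 1 comparison, 1 of the 11 tested on HS, where 6.0% of all probes passed. Eif2b4, a subunit of the exchange factor that recycles the initiation factor eIF2, rose in strain 13 against SS on HS, with 0.535, 0.215 and 0.295 (mean 0.348 ± 0.167, n = 3; limma adjusted p = 0.0409). It was called under 6 of 14 alternatives (adjusted p = 0.00128 to 0.665), and it had 0.11 on the forward arrays alone. The call was lost with the replicate block (adjusted p = 0.0791) and without replicate 1, 2 or 3 (0.296, 0.0653 and 0.103). On LS it had 0.50, 0.27 and 0.205 (mean 0.325, limma adjusted p = 0.0945). In the SS diet comparison 6 of 11 factors were above 0 with a median of 0.0983 and none called. There Eef2k, the kinase that inhibits elongation factor Eef2, had 0.255 (limma adjusted p = 0.142), and Eef1a2, an elongation factor, had 0.333 from 2 replicates.

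Upstream genes gave no call in any of the 5 tests. Rps6kb1, the S6 kinase that phosphorylates Rps6, had -0.37, 0.07 and -0.66 in SS on HS against LS (mean -0.32, limma adjusted p = 0.181) and 0.0017 in strain 13. Its replicates in SS differ in sign. Of the ribosome assembly list Npm1, Nolc1 and Polr1b had a value, and Polr1b was not tested in any comparison. In SS on HS against LS, Npm1, a nucleolar chaperone, had -0.14, 0.24 and 0.37, and Nolc1, a nucleolar phosphoprotein, had -0.215, -0.66 and 0.46, both with replicates of either sign. Of the growth regulators Akt1, Eif4ebp1, Ppp2ca, Rheb and Tsc2 were measured. Eif4ebp1, a repressor of initiation that mTOR switches off, had 0.12, 0.165 and 0.23 in SS (limma adjusted p = 0.373). No gene of the mitochondrial ribosome had a value.

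Markers of kidney cell types moved in the same comparisons, and in such bulk RNA fewer cells of a type and less RNA per cell cannot be told apart. In SS on HS against LS, all 4 measured fibroblast and matrix markers were above 0 and 3 rose, with replicate medians of 0.3225, 0.7125 and 0.75, while the member medians were 0.10, 0.105 and 0.0775. Of 2 tested smooth muscle markers Tagln rose (0.702, limma adjusted p = 0.0105), and 2.82% of all probes passed in this comparison. All 3 thick ascending limb markers were below 0 there, none called, and 10 proximal tubule markers had replicate medians of 0.2925, -0.39 and -0.20. In strain 13 against SS on HS, the 3 collecting duct markers rose (median 0.378), 2 of 9 proximal tubule markers fell (median -0.422), and 1 of 4 fibroblast and matrix markers fell (median -0.384), where 6.0% of all probes passed. There Lyz2, a marker of myeloid cells, fell with -2.46, -0.945 and -1.135 (mean -1.51, limma adjusted p = 0.0321). Cd53, the other leukocyte marker tested, had 0.01, -0.135 and 0.03 (mean -0.0317, limma adjusted p = 0.88). Kdr of endothelium (0.315, limma adjusted p = 0.0241) and Egf of the thick ascending limb (0.292, limma adjusted p = 0.0434) rose. The member median was 0.005 there. On LS the 3 collecting duct markers had 0.227 and the 10 proximal tubule markers -0.16, none called. In strain 13 on HS against LS the 10 proximal tubule markers had a median of -0.344, with 8 below 0 and 2 above. The 4 fibroblast and matrix markers had a median of 0.2325 there, all above 0, and no marker was called. The member median in that comparison was 0.0333. The part of these shifts in the ribosomal protein values was not tested.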

How the data were processed

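Rat kidney RNA was measured on 24 two-colour cDNA arrays. The authors deposited 1 log ratio per probe and array. Log base, normalization, background correction and spot filter were not given in the sources used here. Of 3502 listed probe IDs, 1561 had a value. Probes were named from the platform annotation and updated by gene identifier with RefSeq (GRCr8): 1311 took 1 updated symbol, 5 kept the platform's, 22 had several and 223 none.

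Groups came from the titles and channel text. For 5 SS diet arrays, whose titles give no strain, the strain was placed by elimination, and for another the channel text was followed against its title. Deposited values were taken as turned to one direction: the diet difference and the strain difference correlated at 0.503 over 1294 probes, against -0.179 to 0.222 with groups turned. Over the 30 members alone it was 0.10, and 0.287 after centring each block. Only whole comparisons were turned here, so this does not test the sign of dye-swap against forward arrays. Between comparisons the median r was 0.466 for the difference of the orientations and 0.238 for their sum. The relative signs of the comparisons rest on the correlation of 0.503, and the overall sign is likely only.

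The arrays of a replicate were averaged, and limma 3.58.1 in R 4.3.3 (lmFit, eBayes) fitted 4 group means to 12 RNA pairs, two-sided, with Benjamini-Hochberg adjustment over all probes with at least 2 of 3 replicates. The code was tested on simulated data. Channel text names the same SS RNAs in replicate 3 of the SS diet and the strain comparisons; elsewhere the diet arrays name no RNAs. Deviations of same-numbered pairs correlated at -0.628, -0.563 and -0.294 between SS diet and HS strain, where a shared SS RNA on HS has opposite signs, and ranged from -0.303 to 0.405 between the other comparisons. The 12 pairs were fitted as independent. Design files had assumed base 2, so no folds are given. In each comparison the 4 members of lowest p with all replicates, the highest and lowest, and Rps6 and Rpl5 are named; Rps24, Rps15a and others named for spread or dye were chosen after their values were seen. Members and lists were chosen with earlier results of these data known. Alternatives covered centring, scaling, dye orientation, missing values, left-out replicates and arrays, a replicate block and robust estimation. Planned protein features were not computed, since no protein table was used here.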

Additional observations from a re-analysis of the deposited data

Results flagged for a closer look

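Rpl39 had 1 array apart from the other 5 of its group in 2 comparisons, the gap exceeding the 95% critical value of Dixon's test. In strain 13 on HS against LS the forward array of replicate 2 had 0.25, where the other 5 lay between -0.04 and 0.04. In strain 13 against SS on HS the forward array of replicate 2 had -0.24, where the other 5 lay between 0.01 and 0.14. The dye-swap arrays of the same RNA pairs had 0.02 and 0.14. In all, 119 sets of a member's arrays within a comparison and 8 sets of array summaries over the members were examined, and 2 stood out this way, while chance gives about 1 in 20.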

How the results depend on the processing

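No member was called as deposited. With probes on all 24 arrays, 3 of 28 members were called in SS diet (64 of all 548 probes) and 5 on LS (69). On forward arrays 8 members were called in SS diet (118 of all probes), 7 on LS (70) and 1 on HS (127). In SS diet and on LS this was a larger share of the members than of all probes, and on HS a smaller one. On dye-swap arrays 7 members were called on HS (411 of all probes). A single orientation tested no more probes than as deposited (1310 in SS diet, 1229 on LS, 1350 on HS). The other settings called no member. The member median in SS diet was 0.077 with arrays scaled to equal spread, 0.27 on forward and -0.042 on swap arrays, 0.146 without the array of conflicting title and 0.108 with blocks centred. The array of conflicting title is the dye-swap array of replicate 3, so without it that pair held its forward array only. In strain 13 diet it was 0.102 forward and -0.052 on the swap. On LS it was 0.058 with arrays centred on their median, 0.24 forward, -0.05 on the swap, 0.057 with blocks centred, 0.046 in 8 stretches, 0.015 without the sparsest array and 0.058 to 0.085 with a replicate left out. On HS it was 0.075 forward, -0.042 on the swap, -0.044 with blocks centred and -0.038 in 8 stretches. For the strain difference in salt response it was -0.132 forward and -0.022 on the swap. Counts of all probes called moved as well, and the cause was not tested. In SS diet (37) they were 65 with equal spread, 61 with both orientations required, 64 on all 24 arrays, 118 forward, 62 swap, 60 without the conflicting array, 69 and 74 with blocks and stretches centred, 0 with its own pairs alone and 0 to 57 with a replicate left out. In strain 13 diet (0) they were 15 forward and 3 swap. On LS (0) they were 22 with equal spread, 3 with both orientations, 69 on all 24 arrays, 70 forward, 51 swap and 0 to 1 with a replicate left out. On HS (81) they were 14 with equal spread, 127 forward, 411 swap, 0 with its own pairs and 0 to 19 with a replicate left out. For the strain difference (5) they were 0 with equal spread, own pairs, diet arrays or strain arrays alone, 29 with both orientations, 47 on all 24 arrays, 17 with all replicates, 13 forward, 12 swap, 12 without the conflicting array, 36 and 45 with blocks and stretches centred, 2 without the sparsest array and 0 to 10 with a replicate left out. With the replicate block the counts were 31 in SS diet, 44 on HS, 8 for the strain difference and 0 elsewhere, and no member was called. The block assumes that same-numbered pairs shift the same way, which shared RNAs need not give. Centring within blocks or stretches and leaving out the sparsest array were chosen after seeing the data. The number of RNA pairs, 3 per comparison, limits the precision, and signal over background was not used here.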
